A study of Mus musculus with 5 samples.

Results

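The DNA replication machinery was examined in RAW264.7, a line of mouse monocytes/macrophages, with and without introduced Cd137. The members are 54 named genes that license, unwind, copy, seal and repackage DNA or supply its nucleotides. They were chosen by symbol, and all 54 had an expression value, among 16003 genes with one. The control cells carried Renilla luciferase alone, and the CD137 cells carried Renilla luciferase together with mouse Cd137, a TNF-receptor family member that co-stimulates T cells and whose gene symbol is Tnfrsf9. The sources used here do not give the vector, its promoter or whether the cells are a clone or a pool. The study asks how CD137 bears on macrophage migration and osteoclast formation. Of 5 samples, 2 controls and 3 CD137 samples, the values used here come from 3 libraries: control replicate 2, CD137 replicate 2 and CD137 replicate 3.

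Replication begins when the origin recognition complex (ORC), Cdc6 and Cdt1 load the ring-shaped MCM helicase on DNA in G1. In S phase Cdc45 and the GINS complex join the ring to form the active helicase. Polymerase alpha and its primase then start each strand, polymerases delta and epsilon extend it with the sliding clamp PCNA, and Fen1 and Lig1 join the lagging-strand fragments. Many of these genes are textbook targets of the E2F transcription factors, which the retinoblastoma protein holds in check outside the cycle.

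Levels are in FPKM, fragments scaled to transcript length and to library size, and can be compared between genes because they are per length. Tnfrsf9 itself stood at 5.06 FPKM in the control library, against 364 and 370 FPKM in CD137 replicates 2 and 3, so the libraries followed their labels. Of 11 macrophage marker genes, 10 were expressed and Mertk was at 0.03 FPKM or less. Of those 10, 5 fell and 4 rose at an adjusted p under 0.05 in limma. Of all genes tested, 18.2 percent were lower and 24.4 percent higher, so markers were called more often in both directions. By log2 difference Lyz2 fell most and Fcgr1 rose most of the 10, both named after their values were seen. The summed level of the macrophage markers was 3649 FPKM in the control and 2418 and 2474 FPKM in the CD137 libraries. The T cell markers in the table (3 of 6) summed to 0.62 FPKM or less, the B cell markers (3 of 5) to between 0.65 and 1.93 FPKM, and the 5 fibroblast markers to 0.9 FPKM or less. The 5 epithelial markers summed to 1.03 FPKM in the control, 7.97 in CD137 replicate 2 and 1.48 in replicate 3. The part of these marker differences in the results on replication genes was not tested. Depth relative to the control was 0.983 and 0.988. The 54 genes held 89373 reads in the control and 58459 and 58984 reads in the CD137 libraries, from 280 reads for Orc1 to 5553 for Pcna in the control.

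The promoters of 3 members whose transcripts fell, the helicase subunits Mcm6 and Mcm5 and the GINS subunit Gins3, are shown as examples of an E2F motif that occurs more than once (Mcm6 and Mcm5) and once (Gins3). They were chosen after their values were seen, and other members that fell hold matches nearer to the start. Each line gives the 250 bases before the RefSeq start (GRCm38.p6, the assembly also called mm10), 5′ to 3′ in the direction of the gene. Capitals mark the E2F motif.
Mcm6 (chr1:128359706-128359955, minus strand): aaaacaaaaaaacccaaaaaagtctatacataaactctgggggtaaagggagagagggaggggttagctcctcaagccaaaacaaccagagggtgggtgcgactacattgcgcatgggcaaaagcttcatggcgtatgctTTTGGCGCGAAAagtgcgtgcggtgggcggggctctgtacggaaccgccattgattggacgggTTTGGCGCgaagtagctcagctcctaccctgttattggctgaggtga
Mcm5 (chr8:75109259-75109508, plus strand): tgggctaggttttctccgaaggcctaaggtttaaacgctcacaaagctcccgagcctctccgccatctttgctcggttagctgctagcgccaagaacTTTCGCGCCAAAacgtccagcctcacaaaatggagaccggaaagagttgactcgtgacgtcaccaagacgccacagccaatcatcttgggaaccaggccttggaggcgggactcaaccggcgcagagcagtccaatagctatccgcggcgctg
Gins3 (chr8:95633309-95633558, plus strand): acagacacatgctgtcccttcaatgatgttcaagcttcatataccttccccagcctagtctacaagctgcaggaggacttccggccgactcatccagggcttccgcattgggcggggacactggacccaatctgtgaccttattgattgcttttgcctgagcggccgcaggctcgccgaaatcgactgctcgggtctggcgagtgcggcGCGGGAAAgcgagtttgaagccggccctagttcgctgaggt

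The motif was searched as TTTGGCGC, TTTCCCGC, TTTGCCGC or TTTCGCGC on both strands of windows from 250 bases before to 50 bases after each RefSeq start. In Mcm6 the matches begin 110, 106 and 47 bases before the start, and those at 110 and 106 overlap on opposite strands. Mcm5 holds such a pair as well, beginning 153 and 149 bases before its start, and Gins3 a single match at 41 bases. RefSeq promoters were found for 45 of the 54 members, some with several starts, and a gene was counted when any of its windows held a match. At least 1 match was present in 16 of the 45 (35.6 percent), against 433 of 8687 expressed genes (4.98 percent). It was present in 704 of 27025 genes with RefSeq promoters (2.60 percent), a set not limited to the genes measured here. Among the members, a match was present in 14 of the 35 that fell and in 2 of the 10 that did not pass, Pole4 and Pold3. Mcm2, Pcna, Rrm1 and Rrm2 held none in this window and fell. A match is a run of letters and not a measured binding site. The CCAAT box, the letters CCAAT on either strand, was in 25 of 45 members (55.6 percent) and in 43.8 percent of expressed genes. The letters TTTGAA, the core of the CHR element of mitotic genes, were in 5 of 45 members (11.1 percent) and in 14.7 percent of expressed genes.

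Most of the replication machinery was lower in CD137 cells. Of the 54 genes, 44 fell, 0 rose and 10 did not pass, at an adjusted p under 0.05 in limma. The fit covered the 10720 genes that reached 1 FPKM in any library. In it 18.2 percent of all genes were called lower and 24.4 percent higher. The median log2 difference, CD137 minus control on the log2(FPKM + 1) scale, was -0.50 for the 54 genes and 0.03 for all genes tested. Both CD137 libraries lay below the control for 52 of the 54, against 40.2 percent of expressed genes. The exceptions were Orc2 and Pole4. At least 1.5-fold decreases on that scale were seen for 24 of the 54, against 3.12 percent of expressed genes. The members together made up 0.435 percent of all FPKM in the control and 0.297 percent in each CD137 library. Since whole cultures were measured, fewer cells in S phase and less RNA per cell cannot be told apart. With 1 control library the spread comes from the CD137 libraries alone. No gene passed in limma when all 16003 genes were fitted, where the smallest adjusted p of a member was 0.0802 and 5281 genes, 42 of the 54 among them as lower, had an unadjusted p under 0.05. With limma-voom on reads 46 of the 54 were lower and 0 higher, against 21.9 percent lower and 27.1 percent higher of 10167 genes.

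**Figure D1:**
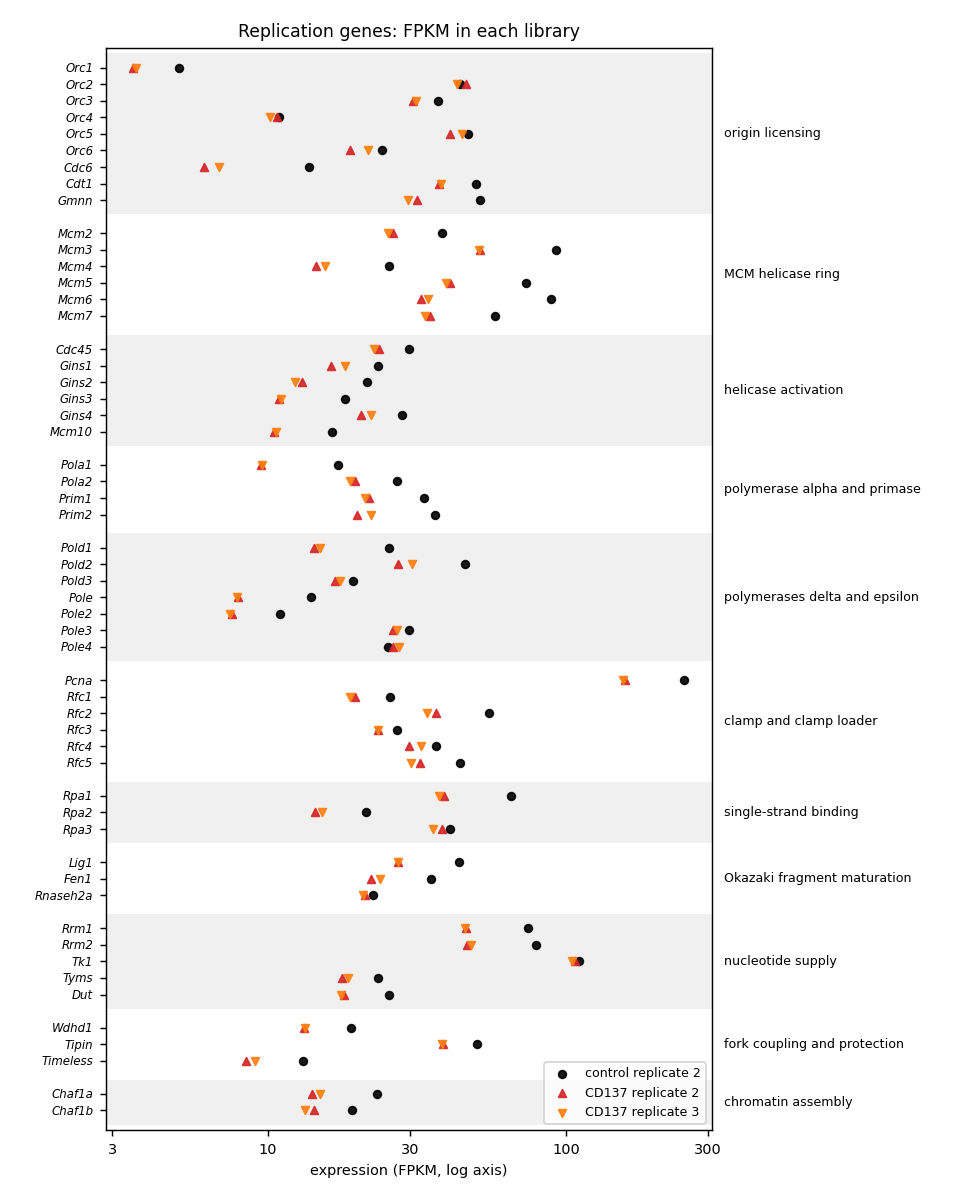
FPKM (log axis) of the 54 replication genes in control replicate 2 (black circles), CD137 replicate 2 (red triangles, pointing up) and CD137 replicate 3 (orange triangles, pointing down), grouped by step. The CD137 libraries lie close together, and both are left of the control for 52 of the 54 genes.

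The CD137 libraries differed little from each other in these genes. The median ratio between the higher and the lower of the pair was 1.04 and the largest 1.15, for Orc6. Replicate 2 was the higher of the pair for 25 of the 54. The members' summed level was 68.7 percent of the control in CD137 replicate 2 and 69.0 percent in replicate 3, although the epithelial markers differed between those libraries. The labels do not state whether the CD137 replicates were separate cultures. The p-values thus reflect only how far these libraries differ, and that difference may be technical. In limma the spread used for a gene also borrows from that of the other genes, so it is not the gene's own alone.

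Of the 9 genes of origin licensing 5 fell and 4 did not pass, with a median log2 difference of -0.25. Cdc6, the ATPase that helps ORC to load the helicase (mm10 chromosome 11, 98907704 to 98923942), had 13.7 FPKM in the control and 6.10 and 6.83 FPKM in the CD137 libraries. Both CD137 values were under the control by more than they differed from each other, with a log2 difference of -0.98 ± 0.09 (SE, limma adjusted p = 0.00195). Cdt1, which brings the MCM ring to ORC, was at 49.9 FPKM and then 37.5 and 38.1 FPKM. Gmnn encodes geminin, the protein that binds Cdt1 and blocks loading again in S and G2. It was at 51.6 FPKM in the control and 31.6 and 29.6 FPKM in the CD137 libraries. Loader and inhibitor were thus both lower, Cdt1 at 0.758 and Gmnn at 0.594 of the control.

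The ORC subunits themselves split. Orc1, the subunit best known to vary with the cycle, was at 5.01 FPKM in the control and 3.53 and 3.6 FPKM in the CD137 libraries and fell. It was the member with the lowest level. Its span shares 3717 bases with Prpf38a on the opposite strand, which was at 28.3, 41.0 and 40.3 FPKM in the same libraries. Without known use of strand in the counting, reads of such overlapping genes cannot be told apart. In all, 9 members had a span that overlapped an expressed gene on the opposite strand, among them Lig1 by 1409 bases and Pole2 by 1332 bases. Orc3 fell from 37.2 to 30.7 and 31.4 FPKM. Orc2, the most abundant ORC transcript in the CD137 mean, was at 43.9 FPKM in the control and 46.0 and 43.0 FPKM in the CD137 libraries. The control lay between them, and the log2 difference was 0.017 (95% interval -0.13 to 0.16, limma adjusted p = 0.830). Its sign turned on either rescaling of the libraries, to -0.0155 and -0.0154. Orc4 had a log2 difference of -0.05 (-0.22 to 0.12). Orc5 and Orc6 were at 0.910 and 0.838 of the control and did not pass, with intervals of -0.30 to 0.03 and -0.48 to -0.01. Orc6 passed when the libraries were rescaled and in the test on reads, and Orc5 only when they were rescaled to an equal upper quartile. Summed over 6 subunits, ORC was at 89.6 and 91.9 percent of the control.

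All 6 subunits of the MCM ring fell, with a median log2 difference of -0.79, the lowest of the 11 steps. Mcm6 (mm10 chromosome 1, 128331575 to 128359705, minus strand) had 89.4 FPKM in the control and 32.7 and 34.5 FPKM in the CD137 libraries. Its reads numbered 4774, 1721 and 1830. The log2 difference of -1.38 ± 0.05 (SE, limma adjusted p = 0.000552) ranked 7th from the lowest among the 10720 genes. Mcm3 was the most abundant subunit, at 92.7 FPKM in the control and 51.6 and 51.3 FPKM in the CD137 libraries. Mcm5 was at 73.6 FPKM and then 40.9 and 39.7 FPKM, and Mcm7 at 58.02 FPKM and then 34.95 and 33.7 FPKM. In each of these 3 the CD137 libraries were within 2 FPKM of each other and far under the control. Mcm4, the least abundant, was at 25.4 FPKM and then 14.5 and 15.5 FPKM. Mcm2 fell least, from 38.3 to 26.3 and 25.2 FPKM, or to 0.672 of the control.

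Because the proteins form a ring with 1 copy of each, the transcripts were also compared as shares of their summed FPKM. The sum dropped from 377 FPKM in the control to 201 and 199.8 FPKM. Mcm6 made up 23.7 percent of it in the control and 16.3 and 17.3 percent in the CD137 libraries. The share of each of the other 5 was higher in both CD137 libraries than in the control, for example 10.1 against 13.1 and 12.6 percent for Mcm2. Mcm6 thus moved from the second to the fourth place among the 6 transcripts in CD137 replicate 2. It was in the third place in replicate 3, where it was at 34.5 FPKM and Mcm7 at 33.7 FPKM. With 1 control library such shares have no test of their own.

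**Figure D2:**
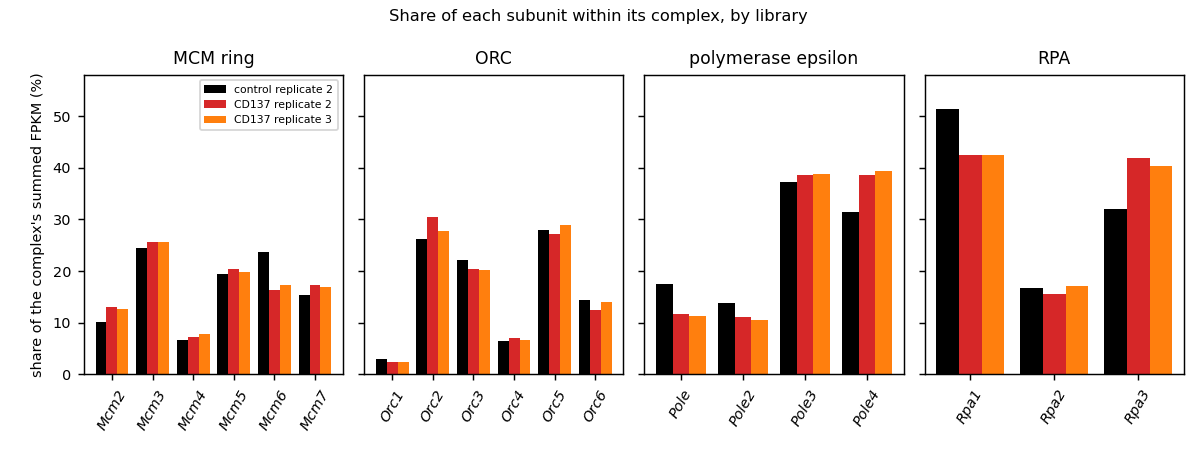
Share of each subunit in the summed FPKM of its complex (percent, bars from 0) in control replicate 2 (black), CD137 replicate 2 (red) and CD137 replicate 3 (orange), for the MCM ring, ORC, polymerase epsilon and RPA. The share of Mcm6 is 23.7 percent in the control and 16.3 and 17.3 percent in the CD137 libraries, while Pole4 goes from 31.5 to 38.6 and 39.3 percent of polymerase epsilon.

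The factors that turn the loaded ring into a moving helicase all fell, 6 of 6, by less than the ring (median log2 difference -0.50). Among the 4 GINS subunits Gins2 and Gins3 were at 0.588 and 0.605 of the control, and Gins1 and Gins4 at 0.738 and 0.760. Gins2 was at 21.5 FPKM in the control and 13.02 and 12.3 FPKM in the CD137 libraries. Gins4 was at 28.1 FPKM and then 20.6 and 22.1 FPKM. The transcripts of this 4-part complex were less even in the CD137 libraries: the highest was 1.55 times the lowest in the control and 1.89 and 2.0 times in the CD137 libraries. That ratio also rose in ORC, polymerase epsilon and polymerase alpha with primase. It fell in the MCM ring, the clamp loader, RPA and polymerase delta, and the differences were not tested. Cdc45, the partner of GINS in the helicase, fell from 29.7 to 23.6 and 22.6 FPKM, the smallest decrease of the 6. Mcm10, which acts as the helicase is activated and is not a ring subunit, fell from 16.4 to 10.5 and 10.6 FPKM.

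Polymerase alpha and primase, which lay down the RNA-DNA primer, fell in all 4 subunits with a median log2 difference of -0.69. The catalytic subunit Pola1 was at 17.1 FPKM in the control and 9.46 and 9.52 FPKM in the CD137 libraries. The primase subunits Prim1 and Prim2 fell to 0.643 and 0.578 of the control. Pola2, the B subunit, fell least, from 27.1 to 19.6 and 18.8 FPKM.

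Of the 7 genes of polymerases delta and epsilon 4 fell and 3 did not pass, and the catalytic subunits were among those that fell. Pole, the leading-strand polymerase, was at 14.0 FPKM in the control and 7.90 and 7.89 FPKM in the CD137 libraries. Pole2 fell from 10.99 to 7.58 and 7.44 FPKM. The small histone-fold subunits Pole3 and Pole4, which form a pair and, for Pole3, also take part in chromatin complexes, did not pass. Pole3 was at 29.8 FPKM in the control and 26.3 and 27.2 FPKM in the CD137 libraries, with a log2 difference of -0.15 (95% interval -0.28 to -0.02, limma adjusted p = 0.0678). Pole4 was at 25.2 FPKM in the control and 26.2 and 27.5 FPKM in the CD137 libraries, the only member above the control in both. Its log2 difference was 0.09 (-0.06 to 0.23) and did not pass. Its reads numbered 692, 661 and 709, a depth-corrected ratio of 1.0. Pole3 passed as lower when the libraries were rescaled but not in the test on reads (limma-voom adjusted p = 0.227). Pole4 did not pass under any setting. In polymerase delta Pold1, the catalytic subunit, and Pold2 fell to 0.573 and 0.632 of the control. Pold3 was at 19.3 FPKM in the control and 16.8 and 17.5 FPKM in the CD137 libraries and did not pass (limma adjusted p = 0.0698); it passed when the libraries were rescaled and in the test on reads.

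The sliding clamp and the complex that loads it fell in all 6 genes. Pcna, the most abundant of the 54 transcripts (mm10 chromosome 2, 132249286 to 132253180, minus strand), had 249.9 FPKM in the control and 157 and 156 FPKM in the CD137 libraries. Its log2 difference was -0.67 ± 0.03 (SE, limma adjusted p = 0.000848). Within the loader, Rfc2 fell most, from 55.4 to 36.7 and 34.1 FPKM. Rfc1, the large subunit particular to the replication loader, fell to 0.75 and Rfc5 to 0.709 of the control. The smallest decreases were those of Rfc3 and Rfc4, to 0.862 and 0.847. Rfc4 was the member closest to the threshold from inside (limma adjusted p = 0.0479) and no longer passed with a pseudocount of 0.1, where the adjusted p was 0.0512. Its span overlaps that of Eif4a2 on the opposite strand by 185 bases.

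Single-strand binding protein RPA has 3 subunits, of which the 2 larger fell. Rpa1 was at 65.6 FPKM in the control and 39.0 and 37.4 FPKM in the CD137 libraries, and Rpa2 at 21.3 FPKM and then 14.3 and 15.2 FPKM. Rpa3, the smallest, was at 40.8 FPKM and then 38.3 and 35.7 FPKM, with a log2 difference of -0.14 (95% interval -0.29 to 0.01). It did not pass, and passed as lower only after rescaling to an equal upper quartile. Rescaling to a median log2 ratio of 0 gave a limma adjusted p of 0.0509, and the test on reads a limma-voom adjusted p of 0.216. The Rpa3 share of the summed RPA transcripts was 31.9 percent in the control and 41.8 and 40.4 percent in the CD137 libraries.

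Of the genes that finish the lagging strand, Lig1 and Fen1 fell and Rnaseh2a did not pass. Lig1, the ligase that seals the nicks, was at 43.6 FPKM in the control and 27.3 and 27.4 FPKM in the CD137 libraries. The flap nuclease Fen1 fell from 35.2 to 22.2 and 23.8 FPKM. Rnaseh2a, the catalytic subunit of the enzyme that removes ribonucleotides, was at 22.4 FPKM and then 21.1 and 20.9 FPKM, a log2 difference of -0.09 (95% interval -0.22 to 0.04).

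Nucleotide supply fell in 4 of 5 genes. Both subunits of ribonucleotide reductase, which makes deoxynucleotides, fell by a like amount. Rrm1 was at 74.6 FPKM in the control and 46.1 and 45.7 FPKM in the CD137 libraries, and Rrm2 at 79.4 FPKM and then 46.5 and 48.0 FPKM. The thymidylate synthase gene Tyms fell from 23.5 to 17.7 and 18.5 FPKM and the dUTPase gene Dut from 25.4 to 18.02 and 17.6 FPKM. Tk1, the cytosolic thymidine kinase of the salvage route, was the second most abundant member in the control, at 111 FPKM, with 107 and 105 FPKM in the CD137 libraries. Its log2 difference of -0.06 had a 95% interval of -0.16 to 0.04 (limma adjusted p = 0.243), so a decrease as large as that of Rrm1 lay outside it. Its 2670, 2479 and 2454 reads gave a ratio of 0.938 with a counting interval of 0.894 to 0.983, which leaves out the spread between cultures. Afmid, on the opposite strand, overlaps its span by 169 bases and was at 10.6, 16.6 and 16.3 FPKM.

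Fork coupling and chromatin assembly fell in all 5 genes. Wdhd1, which couples the helicase to polymerase alpha, was at 19.0 FPKM in the control and 13.2 and 13.3 FPKM in the CD137 libraries. The fork protection pair Timeless and Tipin fell to 0.665 and 0.768 of the control. The 2 measured subunits of CAF-1, which places histones behind the fork, fell from 23.2 to 14.0 and 14.9 FPKM (Chaf1a) and from 19.1 to 14.3 and 13.3 FPKM (Chaf1b).

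**Figure D3:**
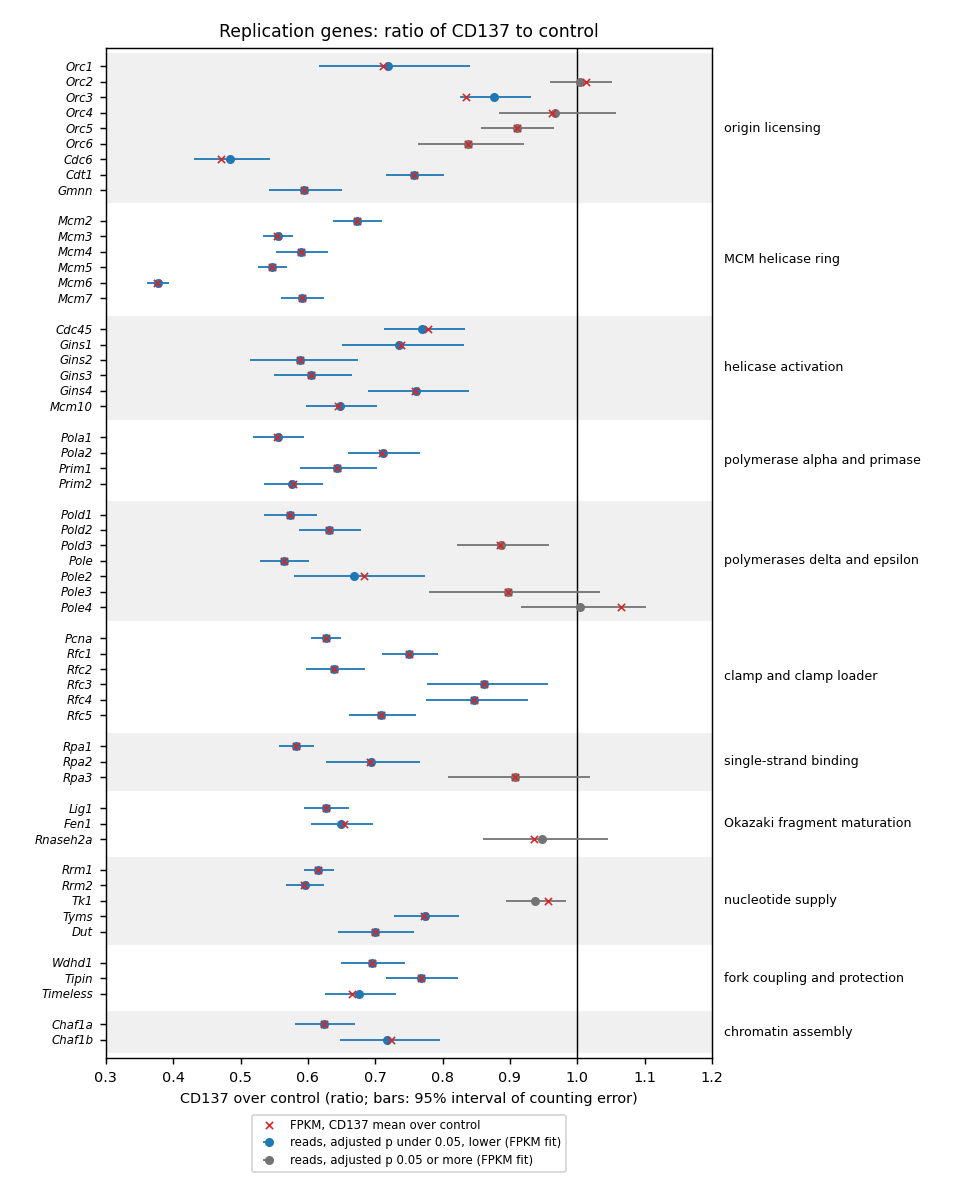
Ratio of CD137 to control for the 54 replication genes, from reads corrected for depth (circles, with bars for the 95% interval of counting error) and from FPKM (red crosses), by step. Blue circles mark the 44 genes past the threshold in the FPKM fit and grey circles the 10 that were not, and a vertical line marks a ratio of 1.

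The ratios from reads matched those from FPKM within 5 percent for 52 of the 54. The exceptions were Orc3, at 0.877 by reads and 0.834 by FPKM, and Pole4, at 1.0 and 1.06. The interval of counting error lay under 1 for 48 members and over 1 for 0. It was computed for the members only, so the count has no share of all genes beside it. Across the 54 members Spearman's rho between the log2 difference and the control level was -0.16, and that with transcript length was -0.29; the values share libraries, so no p is given. Ordered by summed level in CD137 replicates 2 and 3, the steps ran from the MCM ring, at 53.2 and 52.9 percent of the control, to origin licensing, at 79.7 and 80.8 percent. Polymerase alpha and primase were at 62.2 and 62.8 percent and the clamp and its loader at 68.1 and 67.2 percent. Nucleotide supply stood at 75.1 and 74.8 percent, and polymerases delta and epsilon at 74.05 and 77.9 percent. The last of these overlapped nucleotide supply in its spread, while the MCM ring was apart from every other step by more than the CD137 libraries differed. Such sums lean on the most abundant genes. In the control Pcna held 249.9 of the 438.87 FPKM of the clamp step. Tk1, which did not pass, held 110.85 of the 313.71 FPKM of nucleotide supply. The loader subunits Rfc1 to Rfc5 alone were at 74.9 and 73.6 percent of the control. By median log2 difference the clamp step was at -0.44 and nucleotide supply at -0.49. The steps share their libraries, and no test between them was made.

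Of 20 other fork and loader factors 14 fell, 1 rose and 5 did not pass (median log2 difference -0.51). Uhrf1 and Dnmt1, which copy DNA methylation behind the fork, fell to 0.565 and 0.576 of the control, and the PCNA-associated factor 2810417H13Rik to 0.583. Top1 and Rnaseh2b, at 0.929 and 0.866, did not pass. The gene that rose was Pold4, the smallest subunit of polymerase delta, named after its values were seen. It was at 24.8 FPKM in the control and 32.0 and 34.3 FPKM in the CD137 libraries, while Pold1 and Pold2 fell and Pold3 did not pass. Of 8 histone chaperones 7 fell, with Nasp at 0.599, and Asf1a, named after its values were seen, rose from 18.5 to 23.3 and 22.8 FPKM.

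Among 28 genes of origin firing and S-phase control 18 fell, 2 rose and 8 did not pass (median -0.37). Ccne2, a cyclin of the G1/S transition, fell from 6.45 to 3.42 and 2.99 FPKM and the activator E2f2 from 10.3 to 5.84 and 6.07 FPKM. Cdc7, the kinase that fires origins, named after its values were seen, fell to 0.63 of the control. Its activator Dbf4 was at 41.7 FPKM in the control and 41.6 and 42.7 FPKM in the CD137 libraries and did not pass. Cdk2, at 0.903, did not pass either. The genes that rose were Rb1, from 19.2 to 28.0 and 26.6 FPKM, and Tfdp2, from 5.08 to 6.62 and 6.41 FPKM, both named after their values were seen. Rb1 encodes the retinoblastoma protein and Tfdp2 a dimer partner of E2F.

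Of 29 other nucleotide enzymes 18 fell, 3 rose and 8 did not pass (median -0.28). Cad, which starts pyrimidine synthesis, fell to 0.499, Pfas of purine synthesis to 0.623 and the thymidylate kinase gene Dtymk to 0.668 of the control. Rrm2b, the p53-inducible alternative small subunit of ribonucleotide reductase, rose from 6.79 to 12.5 and 12.1 FPKM. Tk2, the mitochondrial thymidine kinase, rose to 1.41, and Samhd1, which breaks down deoxynucleotides, to 1.34 of the control. These 2 were named after their values were seen. The S-phase small subunit Rrm2 thus fell while Rrm2b rose: Rrm2 was 11.7 times as abundant as Rrm2b in the control by FPKM, and 3.73 and 3.97 times in the CD137 libraries.

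Of 11 genes that copy mitochondrial DNA 3 fell, 2 rose and 6 did not pass (27.3 percent lower and 18.2 percent higher, median -0.12). Of all genes tested, 18.2 percent were lower and 24.4 percent higher, and the difference from the nuclear replication genes was not tested. Polrmt, Peo1 and Polg fell to 0.754, 0.775 and 0.816 of the control, Primpol, a primase-polymerase of nucleus and mitochondria, rose from 9.09 to 13.9 and 12.8 FPKM, and Ssbp1, named after its values were seen, rose to 1.14. Of 10 expressed repair and translesion polymerases 2 fell, 2 rose and 6 did not pass (median 0.06). Polq fell to 0.575 of the control, while Polb of base excision repair rose from 17.7 to 21.0 and 20.7 FPKM.

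Among the related lists, histone chaperones were lower in 87.5 percent of 8 genes. Other fork and loader factors were lower in 70 percent of 20 genes (median -0.51). The repair and kinetochore lists were lower in a smaller share of genes than the members. Of 36 genes of homologous recombination, Fanconi and mismatch repair 22 fell, 2 rose and 12 did not pass (61.1 percent lower, median -0.32). Of 46 centromere, kinetochore and mitotic kinesin genes 25 fell, 1 rose and 20 did not pass (54.3 percent lower, median -0.26), against 81.5 percent of the replication genes (median -0.50). In the repair list Brip1 and Fanci fell to 0.474 and 0.518 and Rad52, named after its values were seen, rose to 1.55 of the control. In the kinetochore list the lowest ratio to the control was 0.529, while Cenpa, at 0.919, and Cdca8, at 1.08, did not pass. The median control level was 9.21 FPKM in the repair list and 28.9 FPKM in the members, and the log2(FPKM + 1) scale understates the change of low genes. As plain ratios to the control the medians were 0.773 for the repair list, 0.823 for the kinetochore list and 0.688 for the members. These are counts and medians of lists of unequal size, and the difference between the lists was not tested.

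**Figure D4:**
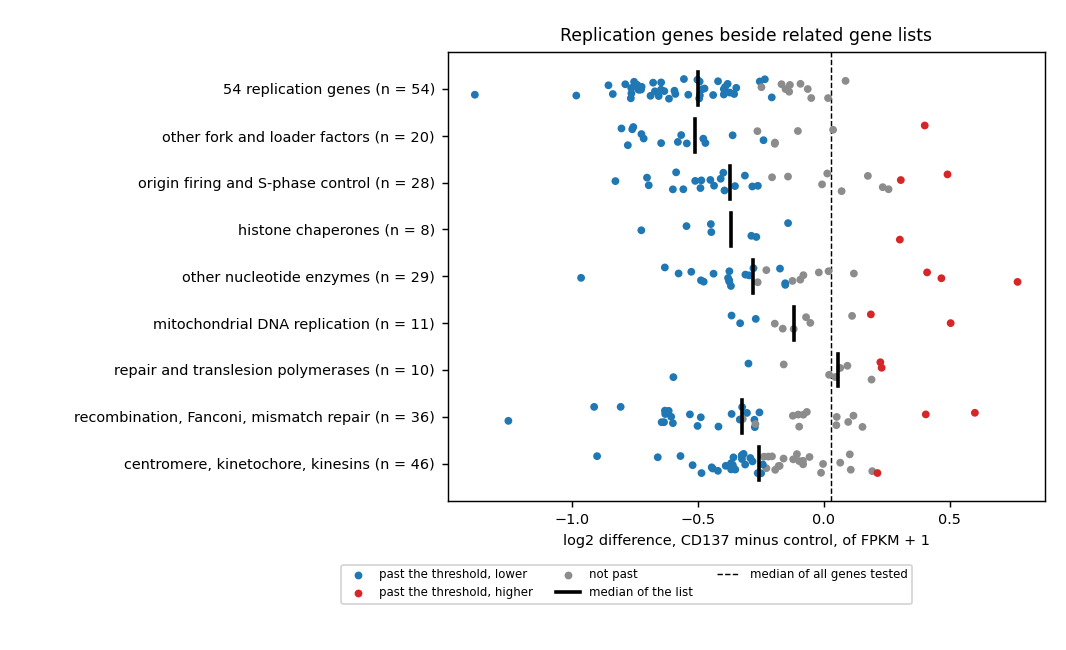
Log2 difference of FPKM + 1, CD137 minus control, for each expressed gene of the 54 replication genes and of 8 related lists; blue points passed as lower, red as higher and grey did not pass. Thick bars are list medians, -0.50 for the replication genes and 0.06 for repair and translesion polymerases, and the dashed line is the median of all genes tested, 0.03.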

How the data were processed

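The authors deposited FPKM values for each gene in each library, per the file headers. The submitters' processing notes list HISAT2, Bowtie2, RSEM and mm10, and give no roles or versions. Libraries were made with oligo-dT beads, per the labels' protocols. Of 21990 genes, 16003 had values. FPKM is relative to the library total. The samples numbered 1 in each group were not used here.

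The deposited log2 ratios and the adjusted p-values, which exceed 1 for some genes and were treated as a score, were not used; groups came from the sample titles. The deposited p-values compare pairs of libraries by their reads and were solved for the whole reads behind them. This gave 1 answer for 12958 genes (81.0 percent), all 54 members among them.

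The test was limma 3.58.1 in R 4.3.3, with a mean-variance trend and empirical Bayes moderation, by which the spread of a gene borrows from the others. It was two-sided, on log2(FPKM + 1), with 1 residual degree of freedom before moderation. Benjamini-Hochberg adjustment covered the 10720 genes at 1 FPKM or more in some library. Differences on that scale understate the change of low genes. The test assumes that the control varies as the CD137 libraries do, and a difference of the control culture alone would also give calls. Both the test and the read solution were tested on simulated data. Read ratios have exact (Clopper-Pearson) 95% intervals, which cover counting error only. Where a text value is called a fold or ratio, it is the CD137 mean over the control in FPKM.

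The members, lists and the filter on expressed genes were chosen with earlier results of these data known. The filter was chosen knowing that the fit of all genes called none of them. Tnfrsf9 and every member are named. From each other list the rule names up to 4 genes past the threshold by size of change and up to 2 of the most abundant that did not pass, and only some of these are printed. Alternatives were other pseudocounts, filters, scalings, left-out libraries and limma-voom on reads.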

Additional observations from a re-analysis of the deposited data

How the results depend on the processing

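The count of replication genes past the threshold as lower was 44, and it was 43 and 44 with pseudocounts of 0.1 and 0.5, and 44 with only genes at 5 FPKM or more. It was 47 and 49 after rescaling to a median log2 ratio of 0 and to an equal upper quartile, and 46 with limma-voom on reads. The shares of all genes called after the rescalings are not given here, so 47 and 49 have no background beside them. After upper-quartile rescaling the limma adjusted p of Mcm6 was 2.97e-11, against 0.000552 in the main fit, so adjusted p-values depended strongly on the scaling. With all 16003 genes in the fit the count was 0, with 42 members lower at an unadjusted p under 0.05 in limma. No member passed as higher under any of these settings. The median log2 difference of -0.50 ranged from -0.55 (limma-voom) to -0.50, and was -0.51 without either CD137 replicate, where no test is possible on 1 library a group. Orc2 changed sign, to -0.0155 and -0.0154 under the rescalings, and ranged from -0.0318 to 0.0656 without CD137 replicate 2 or 3; it passed in none, and the cause was not tested. Rescaling moved the median of all genes by 0.03 on the log2 scale. No paired analysis was possible because the table holds 1 control library, which shares its number with only 1 CD137 library. Depth limits the least-read members most: Orc1, with 280, 196 and 201 reads, had a counting interval of 0.616 to 0.841 for its ratio.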
